A study of Mus musculus with 4 samples.

Results

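The 10 genes described here encode proteins of the central nervous system myelin sheath or of its assembly: Mbp, Mog, Mag, Mobp, Cnp, Cldn11, Mal, Opalin, Ermn and Ugt8a. They were chosen by symbol from the 32285 genes of each count matrix, and all 10 symbols were found. Single-cell RNA sequencing (10x 3' v3 chemistry) was run on dissociated cells of the brain hemisphere opposite to the injected one in C57BL/6 mice, 2 weeks after an intracranial injection. The strain is that of the series description, and 3 of the 4 sample labels give another last digit. The groups were mice aged 93 weeks injected with 1000 cells of the mouse glioma line CT2A-GFP-luc (old tumour), mice aged 93 weeks injected with PBS (old sham), mice aged 8 weeks injected with 1000 of the same cells (young tumour), and mice aged 8 weeks injected with PBS (young sham). Each group was 1 library, and the labels do not say how many mice it held, so differences between groups have no replicate check. They carry no p-value, except in an interaction term with age. There the tumour and sham libraries of each age stood in as replicates of that age. Where values are listed by library, the order is old tumour, old sham, young tumour, young sham.

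Myelin is a spiral of compacted oligodendrocyte membrane around an axon, rich in galactolipids and in a small set of proteins made late in the maturation of the cell. Mbp holds the cytoplasmic faces of the wraps together, and Mobp is a further small basic protein of the compact sheath. Mag sits on the innermost wrap facing the axon and Mog on the outermost surface, Cnp keeps the cytoplasmic channels open, Cldn11 forms the tight junctions between wraps, and Mal is a raft proteolipid involved in membrane sorting. Opalin is a sialylated membrane glycoprotein of oligodendrocytes, Ermn a cytoskeletal protein of late myelination, and Ugt8a the enzyme that makes galactosylceramide. Mature oligodendrocytes are not uniform, and expression of the secreted protease Klk6 is known to mark a subset of them.

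Cells were assigned to 20 classes from panels of marker genes that held no myelin gene of the 10 described. A cell entered a class when at least 3 of its panel genes were detected and at least 2 times as many as of every other class. Of 40390 cells kept, 35016 entered a class. They included 6237 oligodendrocytes, defined by 12 genes such as Gjb1, Hapln2 and Aspa (1696, 2393, 1205 and 943 cells by library), and 451 oligodendrocyte precursors, defined by genes such as Pdgfra and Cspg4 (30, 310, 24 and 87). No cell entered the class of committed precursors (Gpr17, Bmp4, Enpp6). Levels are UMIs (unique molecular identifiers, 1 per captured transcript) summed over the cells of a class and divided by the class total, per 1000000 UMIs (CPM). The 4 libraries held 76652484, 62726818, 75924528 and 64464413 UMIs, and pairs of libraries shared between 27 and 53 cell barcodes. Oligodendrocytes held 92.3%, 94.9%, 93.1% and 90.6% of all UMIs of the 10 genes in the kept cells.

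The promoters of the genes whose levels separated the oligodendrocyte subsets most, and of Mobp, are printed to show the sequence context of the comparisons that follow. Sox10, a transcription factor of the oligodendrocyte lineage, is known to bind short motifs of the form ACAAAG and ACAATG. Both were searched on both strands in the 250 bases before the RefSeq transcription start (GRCm38.p6), and capitals mark each match, a match on the opposite strand reading CTTTGT or CATTGT. Opalin lies at chr19:41061710-41077113 and Mal at chr2:127633226-127656695, Ermn at chr2:58045113-58052864, all on the minus strand, and Mobp at chr9:120149707-120181484 on the plus strand (GENCODE release 21, GRCm38). The windows are chr19:41077114-41077363, chr2:127656696-127656945, chr2:58052865-58053114 and chr9:120149492-120149741 in the same order, each written 5′ to 3′ on the strand of its gene.
Opalin promoter: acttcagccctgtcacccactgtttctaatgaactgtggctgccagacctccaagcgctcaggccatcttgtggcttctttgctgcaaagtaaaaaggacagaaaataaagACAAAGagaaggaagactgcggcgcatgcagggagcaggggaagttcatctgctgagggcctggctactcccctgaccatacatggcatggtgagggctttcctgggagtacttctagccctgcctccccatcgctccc
Mal promoter: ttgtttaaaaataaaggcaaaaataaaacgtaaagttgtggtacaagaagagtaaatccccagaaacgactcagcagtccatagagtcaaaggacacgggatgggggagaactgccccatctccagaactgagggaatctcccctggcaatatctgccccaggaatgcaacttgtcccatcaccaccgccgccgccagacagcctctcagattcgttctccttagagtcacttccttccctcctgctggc
Ermn promoter: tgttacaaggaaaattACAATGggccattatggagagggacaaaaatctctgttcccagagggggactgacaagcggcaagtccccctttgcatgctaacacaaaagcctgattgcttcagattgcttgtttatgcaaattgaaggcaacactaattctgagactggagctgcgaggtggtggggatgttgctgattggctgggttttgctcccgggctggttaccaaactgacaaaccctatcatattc
Mobp promoter: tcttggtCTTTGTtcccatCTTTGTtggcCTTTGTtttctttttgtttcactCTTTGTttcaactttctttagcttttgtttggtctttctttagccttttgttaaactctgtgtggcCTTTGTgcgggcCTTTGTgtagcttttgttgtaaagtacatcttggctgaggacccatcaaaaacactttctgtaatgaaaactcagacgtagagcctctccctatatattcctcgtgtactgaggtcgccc
The Mobp window held 6 matches, between 120 and 243 bases before the start, and it was the 1 window of 32851 in the table (0.003%) to hold that many. It thus held the most among the windows of the myelin genes, and Mobp was not called between the Klk6 subsets below. Opalin and Ermn held 1 match each, 139 and 234 bases before the start, and Mal held none. At least 1 match was found in 25.2% of all windows (ACAAAG in 16.5%, ACAATG in 10.7%). It was found in 6 of the 11 windows of the 9 myelin genes that had one or more windows, Mag having 3. By gene the count was 5 of 9, and overlapping windows of Mag held the same match. The galactosylceramide enzyme Ugt8a had no match in a window of 76.8% G and C, against a median of 52.4% over all windows. These are letter matches and were not tested for binding.

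Over all oligodendrocytes, Mbp and Ermn varied least across libraries. Mbp had 5435, 5152, 5127 and 4974 CPM, which is 34.7, 28.7, 32.7 and 36.4 UMIs per cell, and Ermn had 2478, 2447, 2336 and 2390 CPM. Cnp had 4093, 4393, 4786 and 4891 CPM. For these genes the highest library stood less than 1.5 times above the lowest. The axon-facing adhesion protein Mag had 2513, 3466, 3105 and 3230 CPM, lowest in old tumour. Mobp had 2712, 1941, 3063 and 2940 CPM, lowest in old sham. Ugt8a had 738, 792, 874 and 916 CPM. Cnp and Ugt8a were lower in both old libraries than in both young ones, and the remaining genes were so by a wider step. Mal had 5589, 5631, 8602 and 8888 CPM, or 35.7, 31.4, 54.8 and 65.0 UMIs per cell. Cldn11 had 1262, 1213, 1795 and 1890 CPM, Mog 1084, 1171, 1613 and 1684 CPM, and Opalin 1305, 1337, 1839 and 1663 CPM. The chemistry counts 3' ends, so these values carry no transcript length, and capture can differ between genes.

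**Figure D1:**
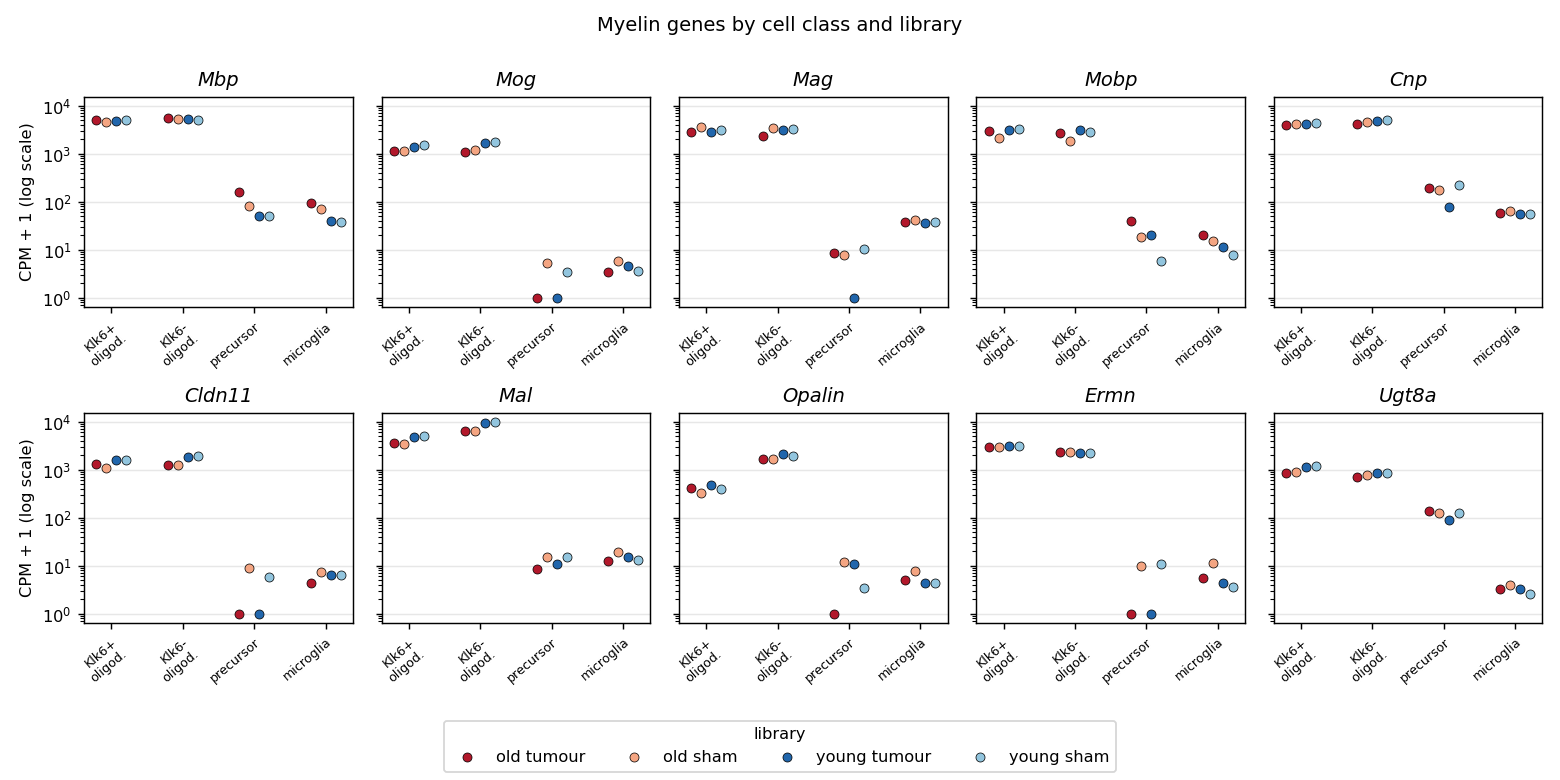
CPM plus 1 (log axis) of each of the 10 genes in Klk6-positive oligodendrocytes, Klk6-negative oligodendrocytes, precursors and microglia, with 1 point per library. All 10 genes stand far higher in both oligodendrocyte groups than in precursors and microglia, Ugt8a has the smallest step to precursors, and Opalin is the gene that separates both oligodendrocyte groups most.

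Within oligodendrocytes, Opalin and Mal were much lower in cells with Klk6, while Ermn and Ugt8a were higher and the other genes differed little. Klk6-positive cells had at least 1 Klk6 UMI and made up 306, 395, 138 and 131 of the oligodendrocytes (18.0%, 16.5%, 11.5% and 13.9%), against 0.249%, 0.279%, 0.0997% and 0.136% of microglia with a Klk6 UMI. Of the Klk6-positive cells, 88, 126, 42 and 39 had exactly 1 Klk6 UMI and lie at the limit of the definition, and the medians were 3, 3, 4 and 4 Klk6 UMIs per cell. Klk6-positive cells had more UMIs, with median UMI counts of 8729, 8058, 7516.5 and 8806 against 5453.5, 4796.5, 5401 and 6137.5 in Klk6-negative cells. Both cell groups came from the same library each time, so the 4 libraries served as replicates of this contrast, fitted with library as a block over all genes (edgeR quasi-likelihood test, Benjamini-Hochberg adjustment). The p-values rest on the spread among these 4 libraries, which are of 4 different conditions. That spread was estimated with information shared across all genes tested, and not from each gene alone.

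Opalin had 406, 331, 481 and 388 CPM in Klk6-positive cells, against 1640, 1677, 2073 and 1959 CPM in Klk6-negative cells. The 2 sets of values did not overlap, and every library showed the drop. The means were 402 ± 62.0 CPM and 1837 ± 212 CPM (SD, n = 4 libraries), a log2 difference of -2.24 (SE 0.06), or 4.72-fold lower in Klk6-positive cells (edgeR, adjusted p = 1.47e-15). The share of cells with an Opalin UMI followed the level. It was 51.6%, 48.4%, 61.6% and 47.3% in Klk6-positive cells, against 95.8%, 95.3%, 98.0% and 96.8% in Klk6-negative cells. With every cell thinned to 1000 UMIs it was 24.8%, 22.5%, 27.5% and 21.4% in Klk6-positive cells, against 77.3%, 76.4%, 80.8% and 77.1% in Klk6-negative cells. In microglia, which should lack the gene, the unthinned share was 1.91%, 3.19%, 1.30% and 1.22% and the thinned share at most 0.573%, under the share in Klk6-positive cells of every library.

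Mal had 3517, 3439, 4709 and 5118 CPM in Klk6-positive cells, against 6359, 6372, 9274 and 9762 CPM in Klk6-negative cells. Every library showed the drop, and within each cell group Mal was lower in both old libraries than in both young ones. The means were 4196 ± 846 CPM and 7942 ± 1831 CPM (SD, n = 4 libraries), a log2 difference of -0.95 (SE 0.04), or 1.94-fold lower in Klk6-positive cells (edgeR, adjusted p = 3.48e-12).

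The galactolipid enzyme and the cytoskeletal protein moved the other way. Ermn had 2960, 2940, 3029 and 3037 CPM in Klk6-positive cells, against 2299, 2281, 2216 and 2240 CPM in Klk6-negative cells, a log2 difference of 0.36 (SE 0.04; edgeR, adjusted p = 2.06e-06). Ermn varied little across age and injection, with means of 2991 ± 48.8 CPM and 2259 ± 37.7 CPM (SD, n = 4 libraries). Ugt8a had 860, 908, 1114 and 1161 CPM in Klk6-positive cells, against 693, 753, 832 and 860 CPM in Klk6-negative cells, a log2 difference of 0.32 (SE 0.05; edgeR, adjusted p = 4.09e-05). Ugt8a was higher in Klk6-positive cells of each library, though the old tumour value in Klk6-positive cells equalled the young sham value in Klk6-negative cells when rounded, and the call was lost without library as a block (edgeR, adjusted p = 0.0975).

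Small drops passed the test for 3 further genes. Cnp had 3962, 4074, 4103 and 4282 CPM in Klk6-positive cells, against 4141, 4500, 4903 and 5032 CPM in Klk6-negative cells (log2 -0.21, SE 0.05; edgeR, adjusted p = 0.00128). Cldn11 had 1291, 1092, 1546 and 1606 CPM in Klk6-positive cells, against 1252, 1255, 1837 and 1956 CPM in Klk6-negative cells (log2 -0.21, SE 0.05; edgeR, adjusted p = 0.00605), lower in 3 of the 4 libraries and not in old tumour. Mbp had 4995, 4572, 4900 and 4921 CPM in Klk6-positive cells, against 5598, 5348, 5166 and 4987 CPM in Klk6-negative cells (log2 -0.16, SE 0.04; edgeR, adjusted p = 0.00924). Each of these calls was lost in at least 1 re-run with fewer UMIs, fewer libraries or no block. Mbp had an adjusted p of 0.145 without old sham and of 0.0636 without old tumour, and Cldn11 of 0.0533 without young sham (edgeR). Thinning the cells to 1000 UMIs, with the Klk6 groups kept from the full counts, gave 0.102 for Cnp and 0.187 for Cldn11 (edgeR, adjusted p).

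The 3 other genes did not pass. Mobp, a basic protein like Mbp, had 2911, 2116, 3139 and 3234 CPM in Klk6-positive cells, against 2638, 1882, 3050 and 2871 CPM in Klk6-negative cells (log2 0.09, SE 0.04; edgeR, adjusted p = 0.149). Mog had 1128, 1161, 1376 and 1517 CPM in Klk6-positive cells, against 1067, 1174, 1654 and 1723 CPM in Klk6-negative cells (log2 -0.13, SE 0.06; edgeR, adjusted p = 0.0827), and passed when old tumour was left out. Mag had 2845, 3588, 2866 and 3100 CPM in Klk6-positive cells, against 2389, 3425, 3146 and 3260 CPM in Klk6-negative cells (log2 -0.01, SE 0.06; edgeR, adjusted p = 0.924), and its sign turned under 5 of 14 alternatives. In all, 2 of the 10 genes were higher and 5 lower, where 13.9% of 10559 genes tested were called higher and 13.1% lower. The median log2 difference was -0.15 over the 10 genes and -0.01 over all genes tested. Of the 10 genes, Opalin and Mal were those that differed by more than 1.5-fold.

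**Figure D2:**
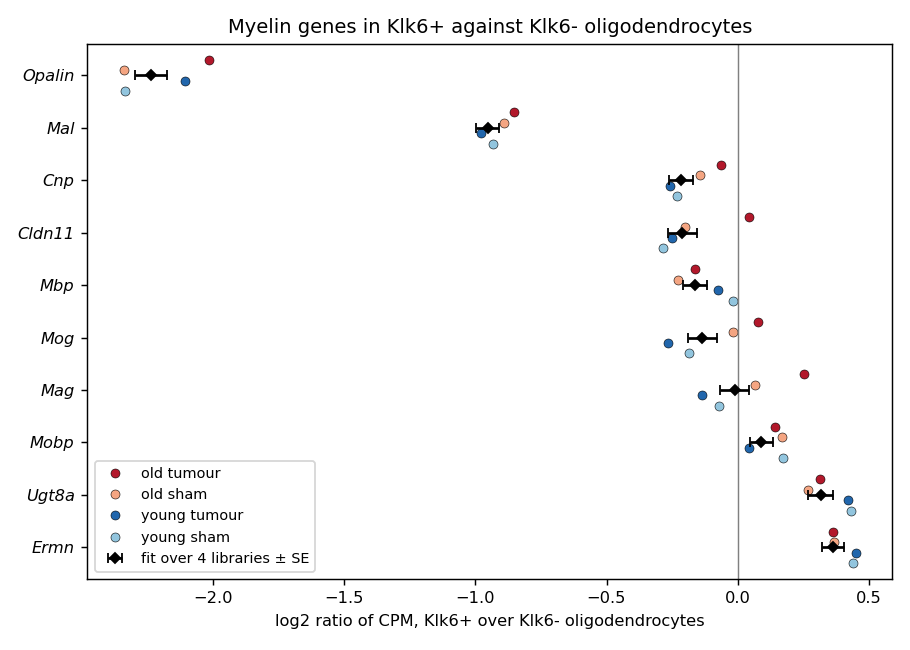
Log2 ratio of CPM in Klk6-positive over Klk6-negative oligodendrocytes for each gene, as 1 point per library with the edgeR estimate and its standard error. Opalin and Mal lie left of 0 in all 4 libraries, at -2.24 and -0.95 in the fit, Ermn and Ugt8a lie right of 0 in all 4, and Mag, Mog and Cldn11 have libraries on both sides.

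For Mag and Mog a difference between the old and young libraries was called in this contrast, but most alternatives lost it. The ratio of Klk6-positive over Klk6-negative CPM was 1.19 and 1.05 in old tumour and old sham, against 0.911 and 0.951 in young tumour and young sham for Mag, and 1.06 and 0.988 against 0.832 and 0.880 for Mog. An interaction term of Klk6 with age, added after these values were seen (2 old and 2 young libraries, each also of its own injection), gave a log2 difference of 0.27 for each gene (SE 0.06 each; edgeR, adjusted p = 0.00969 for Mag and 0.0152 for Mog). Of 10559 genes, 0.644% were called higher and 0.777% lower in this term. Both calls were lost under 7 of 11 alternatives, among them leaving out old tumour, young tumour or young sham. Without old tumour the log2 differences were 0.18 for Mag and 0.21 for Mog (edgeR, adjusted p = 0.241 and 0.164). Without young tumour they were 0.23 and 0.22 (edgeR, adjusted p = 0.289 and 0.341), and without young sham 0.31 and 0.31 (edgeR, adjusted p = 0.0528 and 0.0597). The 8 other genes were not called, the nearest being Cldn11 at 0.20 and Cnp at 0.15 (edgeR, adjusted p = 0.17 for each). Cldn11 was called without old sham (0.33; edgeR, adjusted p = 0.00141) and stood at 0.07 without old tumour, and Cnp was called with classes from clusters (0.21; edgeR, adjusted p = 0.0301).

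Other genes of the oligodendrocyte lineage split in the same contrast, in which 13.9% of all genes tested were higher and 13.1% lower. Of 8 enzymes of myelin lipid synthesis, 5 were higher in Klk6-positive cells and none lower, among them the fatty acid elongases Elovl5 (log2 0.69), Elovl7 (0.53) and Elovl1 (0.46) and Gal3st1 (0.59), which sulphates the product of Ugt8a. Without the genes that also served as class markers the count was 4 of 6. Of 17 other myelin and axoglial junction proteins, 7 were higher and 6 lower. The septin-binding scaffold protein Anln (1.31), the gap junction protein Gjb1 (1.12) and Hapln2 of the nodal matrix (1.10) rose, and the tetraspanins Cd9 (-1.81) and Tspan2 (-1.13) and the paranodal adhesion protein Nfasc (-0.76) fell. Without class markers, 4 of 12 were higher and 4 lower. Of 9 regulators of differentiation 6 were lower, including Olig2 (-0.89), Olig1 (-0.49) and Sox10 (-0.17), and Nkx2-2 was higher (0.33). In old tumour the CPM ratio was 1.02 for Sox10 and 0.955 for Nkx2-2, opposite to the sign of the fit. Of 12 markers of mature subsets, which include Klk6 itself, 8 were higher and 3 lower, with S100b at 3.86, Hopx at 3.44, Ptgds at -2.55 and Il33 at -1.44. Every gene given a direction in this paragraph passed the edgeR test at an adjusted p of 0.05 or less.

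All 10 genes were higher in oligodendrocytes than in oligodendrocyte precursors, the dividing cells from which they arise. The test was of the same kind, with library as a block, and 31.8% of 11608 genes were called higher and 22.8% lower. Log2 differences ran from 3.58 to 9.75 with a median of 8.43, against 0.18 over all genes tested. Ugt8a, the enzyme of galactolipid synthesis, had the smallest step. It had 738, 792, 874 and 916 CPM in oligodendrocytes, against 136, 126, 87.7 and 122 CPM in precursors (log2 3.58, SE 0.21, 11.9-fold; edgeR, adjusted p = 2.12e-12). The precursor values came from 18, 203, 9 and 51 UMIs, and 12 of 30, 140 of 310, 8 of 24 and 36 of 87 precursors had a Ugt8a UMI, 45.2% in old sham, against 1.04%, 1.44%, 0.797% and 0.543% of microglia. Cnp had 4093, 4393, 4786 and 4891 CPM in oligodendrocytes, against 189, 177, 77.9 and 220 CPM in precursors (log2 5.53, SE 0.30, 46.1-fold; edgeR, adjusted p = 3.52e-13). Mbp had 5435, 5152, 5127 and 4974 CPM in oligodendrocytes, against 159, 80.4, 48.7 and 50.2 CPM in precursors (log2 6.83, SE 0.33; edgeR, adjusted p = 6.86e-14). Its precursor mean, 84.6 CPM, lay near that in astrocytes (77.7 CPM) and below that in T and NK cells (143 CPM).

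The other 7 genes were low in precursors. Mobp had 37.9, 17.3, 19.5 and 4.78 CPM there, Mal 7.58, 14.2, 9.74 and 14.3 CPM, and Mag 7.58, 6.81, 0 and 9.56 CPM. Mog and Cldn11 had no UMI in precursors of either tumour library, which allows up to 22.7 CPM in old tumour and 29.2 CPM in young tumour at 3 counts. Opalin had none in old tumour and Ermn none in either tumour library. Fitted log2 differences for these 7 genes lay between 7.95 and 9.75, and for genes with libraries at 0 they depend on the prior count. The old tumour and young tumour values rest on 30 and 24 precursors, and the median UMI count of the young tumour precursors was 2341, against 4884.5 to 5468.5 in the other libraries. Of the other lists, 8 of 8 lipid enzymes, 16 of 17 other myelin and junction proteins and 2 of 9 regulators were higher in oligodendrocytes, Nkx6-2 (log2 6.56) and Myrf (4.02), beside the 31.8% of all genes. The 3 regulators that were lower were Olig2 (-1.47), Zfp488 (-1.42) and Olig1 (-0.63) (edgeR, adjusted p of 0.05 or less for each). Nkx6-2 was also a class marker, and without it the count of higher regulators was 1 of 8.

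In the other cell classes the 10 genes were lower than in oligodendrocytes, and their levels did not keep the proportions they had there. In microglia, which should lack myelin RNA, Mbp had 93.3, 67.9, 39.0 and 36.2 CPM, which is 1.72%, 1.32%, 0.760% and 0.727% of its oligodendrocyte level. Mobp had 19.2, 14.1, 10.2 and 6.57 CPM (0.707%, 0.726%, 0.334% and 0.224%). Mbp, Mobp, Cnp, Opalin, Ermn and Ugt8a were higher in microglia of both old libraries than of both young ones. For Ugt8a the step was small, at 2.20 CPM in old tumour against 2.18 CPM in young tumour. The share of all genes with this order in microglia was not taken. Opalin stood at 0.304%, 0.509%, 0.185% and 0.198% of its oligodendrocyte level, Mal at 0.206%, 0.327%, 0.162% and 0.138%, and Ermn at 0.177%, 0.416%, 0.142% and 0.110%. Over the 10 genes the median was 0.301%, 0.509%, 0.276% and 0.211%, highest in old sham. Oligodendrocytes held 16.7%, 24.6%, 12.2% and 12.7% of the UMIs of kept cells. That part was also highest in old sham, but was lower in young tumour than in young sham, unlike the median. A link between them was not tested.

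**Figure D3:**
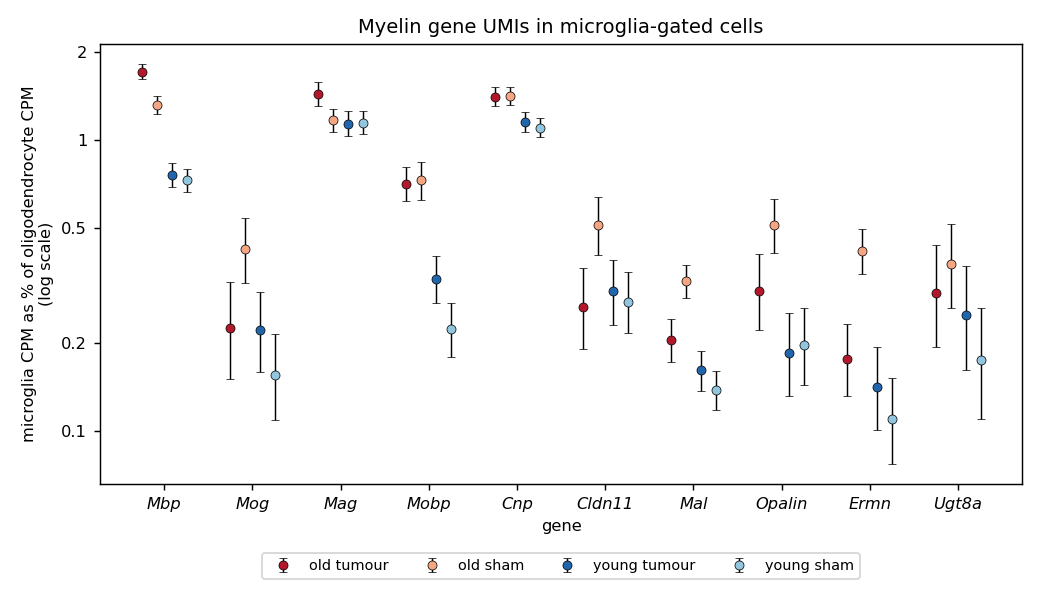
Microglia CPM as a percentage of oligodendrocyte CPM for each gene and library, with 95% intervals that cover counting error only. Mbp, Mag and Cnp lie between 0.727% and 1.72%, while Mog, Cldn11, Mal, Opalin, Ermn and Ugt8a lie at or under 0.51% in all 4 libraries.

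Mag had 36.1, 40.5, 35.3 and 37.0 CPM in microglia, or 1.44%, 1.17%, 1.14% and 1.15% of its oligodendrocyte level, and stayed between 35.3 and 40.5 CPM in all 4 libraries. A Mag UMI was seen in 15.6%, 18.9%, 12.2% and 12.6% of microglia, against 1.81%, 4.94%, 2.36% and 2.47% of endothelial cells, at median UMI counts of 4677.5, 4946, 3197 and 3613 in microglia and 4673, 4022, 3245 and 3880 in endothelial cells. Thinned to 1000 UMIs, the share in microglia was 3.38% to 4.14%, and in endothelial cells 0.316% to 1.00%. Each of 14 classes without mature oligodendrocytes was compared with the mean of the other 13 (edgeR, library as a block, 13478 genes), a test added after the values were seen. Mog and Opalin did not pass its filter on low counts, and the other 8 genes were tested. Mag was higher in microglia by a log2 difference of 2.82 (SE 0.14; edgeR, adjusted p = 3.52e-25), where 38.9% of genes were called higher. It was also higher in border macrophages, by 1.42 (edgeR, adjusted p = 0.00194), where 22.0% were.

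Mal was high in endothelial cells. It had 846, 735, 733 and 650 CPM there, which is 15.1%, 13.1%, 8.52% and 7.31% of its oligodendrocyte level, and 85.5%, 81.1%, 76.3% and 76.8% of endothelial cells had a Mal UMI, against 4.65%, 8.22%, 4.62% and 3.93% of microglia. After thinning the share was 41.5% to 51.4% of endothelial cells, and 1.06% to 2.25% of microglia. The log2 difference from the other classes was 5.42 (edgeR, adjusted p = 2.48e-45; 34.7% of genes called higher). In fibroblasts Mal had 75.9, 41.7, 59.3 and 52.5 CPM (log2 1.43). Cldn11 was high in fibroblasts, at 194, 299, 254 and 170 CPM (log2 5.46; edgeR, adjusted p = 1.96e-36; 27.9% of genes called higher), from 50 to 73 cells per library. The claudin is known from the arachnoid barrier of the meninges as well as from myelin. Ugt8a was high in precursors, as above, with a log2 difference of 5.33 from the other classes (edgeR, adjusted p = 1.05e-25; 32.1% of genes called higher). In the other 13 classes the highest Ugt8a level by library was 6.99, 14.0, 4.20 and 4.50 CPM. The median of Cldn11 over those 13, fibroblasts included, was 3.83, 7.15, 3.67 and 4.17 CPM. Cldn11 and Ugt8a may thus have passed the filter on low counts through their high class alone. Their p-values here are therefore not evidence beyond the levels, which were seen before the test was added.

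Cnp was called higher in 6 of the 14 classes, more than any other of the genes tested. It had 363, 225, 214 and 441 CPM in B cells (log2 2.76; edgeR, adjusted p = 2.82e-21; 14.2% of genes called higher), from 35 to 80 cells per library. Astrocytes had 161, 168, 183 and 161 CPM (log2 1.81; 41.9%), ependymal cells 175, 185, 172 and 163 CPM (1.76; 37.6%) and T and NK cells 81.2, 96.6, 89.3 and 68.4 CPM (1.11; 25.5%), the percentage being the genes called higher in that class. Precursors (log2 1.30) and microglia (0.40) were the others. A Cnp UMI was seen in 41.3%, 40.4%, 39.9% and 39.2% of astrocytes, against 13.5%, 15.3%, 9.36% and 11.2% of endothelial cells, although the astrocytes were the shallower in each library, at median UMI counts of 3078.5 to 3740. Mbp was higher in neutrophils, at 354, 112, 256 and 132 CPM (log2 2.34; edgeR, adjusted p = 7.22e-11; 16.2%), from 21 to 97 cells per library, and in T and NK cells (log2 1.39). The neutrophil values came from 57, 8, 18 and 53 Mbp UMIs. In CPM both tumour libraries were above both sham libraries. The share of neutrophils with an Mbp UMI, 26.3%, 28.6%, 37.5% and 36.1%, did not show that order, which was not tested. The Mbp locus also gives the longer golli transcripts, known from immune cells, which 3' counts do not separate from the myelin form. Smaller differences were called for Mobp in astrocytes (log2 0.86), for which the old libraries had 31.4 and 29.0 CPM and the young ones 14.5 and 9.31 CPM. Ermn was called in neuroblasts (1.36; 33.0%), at 14.5, 14.3, 14.5 and 15.3 CPM. It was also called in choroid plexus epithelium (1.25; 34.9%), at 4.77, 18.4, 2.91 and 6.25 CPM. That mean, 8.08 CPM, was below the Ermn means in neutrophils (9.91 CPM), border macrophages (9.39 CPM) and B cells (9.21 CPM). None of the 8 genes was called higher in neurons or mural cells, where 38.0% and 21.4% of genes were. The part of free RNA in these levels was not tested.

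**Figure D4:**
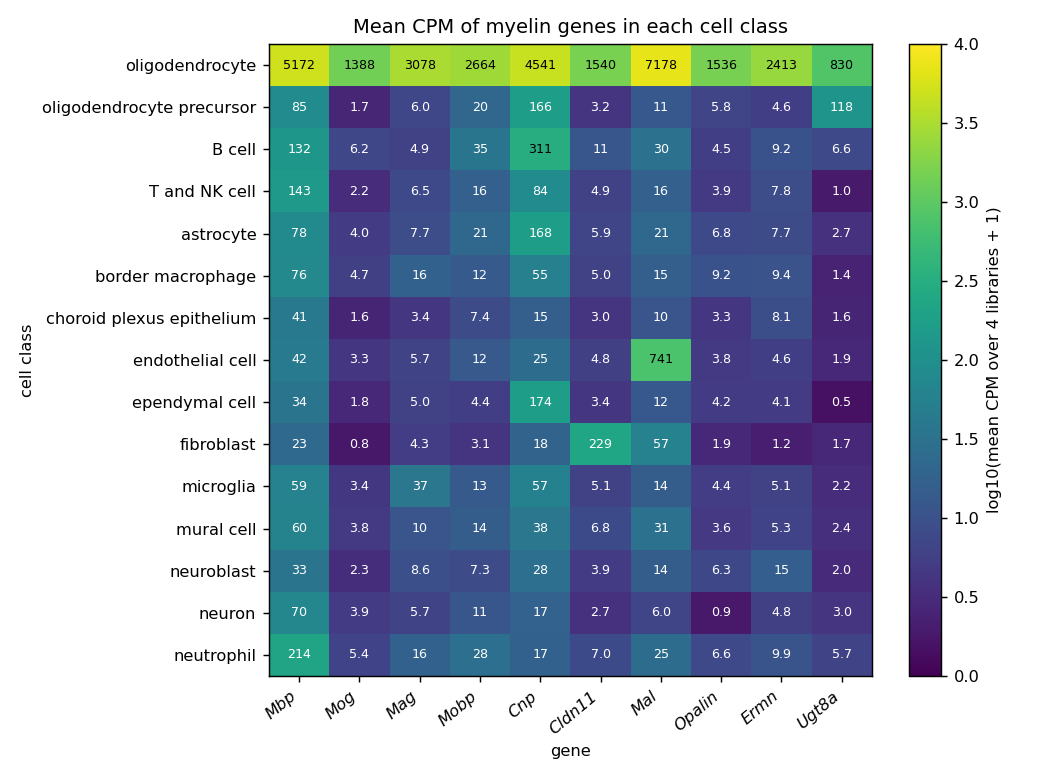
Mean CPM over libraries of each gene in each cell class, on a log colour scale. Outside oligodendrocytes, means above 100 CPM are those of Mal in endothelial cells, Cldn11 in fibroblasts, Ugt8a in precursors, Cnp in B cells, ependymal cells, astrocytes and precursors, and Mbp in neutrophils, T and NK cells and B cells. The B cell mean of Mbp is raised by old sham, with 119, 332, 46.2 and 31.5 CPM by library, and Mbp was not called higher in B cells.

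Most of the 10 genes were lower in oligodendrocytes of old than of young mice. Ratios of CPM were taken with exact conditional Poisson 95% intervals, which cover counting error only, and a ratio past 1.5 either way was counted among genes with at least 20 CPM in 1 of the groups. Mal was lower in old oligodendrocytes, at 0.650 of the young level with a tumour (interval 0.643 to 0.657) and 0.634 in sham (0.627 to 0.640). Klk6-positive cells, in which Mal was low, were a larger share of the oligodendrocytes in both old libraries. Within Klk6-positive cells the Mal ratio was 0.747 with a tumour and 0.672 in sham, and within Klk6-negative cells it was 0.686 and 0.653. In Klk6-negative cells Mog (0.645) and Cldn11 (0.681) were below Mal with a tumour and Cldn11 (0.641) in sham, and in Klk6-positive cells Mobp (0.654) was below it in sham. Cldn11 stood at 0.703 (0.687 to 0.720) with a tumour and 0.642 (0.627 to 0.657) in sham, Mog at 0.672 (0.655 to 0.689) and 0.695 (0.679 to 0.712), and Opalin at 0.710 (0.694 to 0.727) and 0.804 (0.785 to 0.823). Mobp stood at 0.886 (0.870 to 0.901) with a tumour and 0.660 (0.648 to 0.672) in sham.

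Past 1.5 lay 1 gene with a tumour (Mal) and 3 in sham (Mal, Cldn11 and Mobp), all lower in old mice. Within Klk6-negative cells it was Mog with a tumour, and Mal, Cldn11 and Mobp in sham. Within Klk6-positive cells it was none with a tumour and Mobp in sham. Of the genes measured, 2.74% were higher and 2.08% lower past 1.5 with a tumour, and 4.05% higher and 2.11% lower in sham. The median log2 ratio over the 10 genes was -0.27 with a tumour and -0.26 in sham, against 0.04 and 0.08 over all genes measured. Both old libraries were below both young ones for 7 of the 10 genes, where 20.1% of 6127 genes were. Mbp and Ermn were above in both, by ratios of 1.02 to 1.06, as were 36.6% of genes, though in Klk6-positive cells in sham they stood at 0.929 and 0.968. Mag overlapped, at 0.809 with a tumour and 1.07 in sham. Among markers of mature subsets, 7 of 12 with a tumour and 6 of 11 in sham were higher in old mice past 1.5, with the complement gene C4b at 4.10 and 7.90 times and Hopx, also higher in Klk6-positive cells, at 4.85 and 3.01 times. Age, the mice behind a library and the preparation of the library cannot be told apart here.

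**Figure D5:**
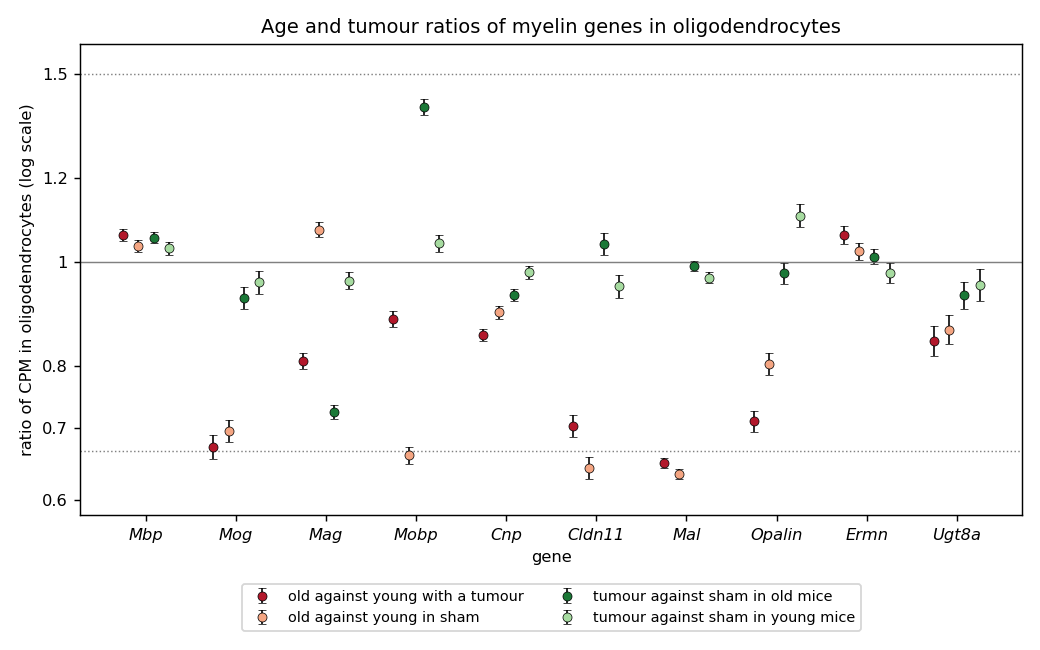
Ratio of CPM in oligodendrocytes for each gene (log axis), old over young and tumour over sham, with 95% intervals that cover counting error only and dotted lines at 1.5 times either way. Mal lies past the line at both injections in the age comparison, Cldn11 and Mobp in sham alone, and no gene lies past it in the tumour comparison.

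Between tumour and sham libraries no gene passed 1.5 times at either age, where 0.285% of genes were higher and 0.637% lower in old mice, and 0.378% higher and 0.292% lower in young mice. The median log2 ratio of tumour over sham was -0.02 in old mice and -0.04 in young mice, against -0.05 and -0.01 over all genes measured. The ratios farthest from 1 were those of Mag and Mobp in old mice. Mag had 2513 CPM in old tumour, against 3466 CPM in old sham. Its ratio was 0.725 (0.714 to 0.736) in old mice, and 0.961 (0.944 to 0.979) in young mice. Mobp had 2712 CPM in old tumour, against 1941 CPM in old sham. Its ratio was 1.40 (1.37 to 1.42) in old mice, and 1.04 (1.02 to 1.06) in young mice. The old ratio over the young ratio was 0.754 (0.737 to 0.772) for Mag and 1.34 (1.31 to 1.38) for Mobp. For Mobp the same was seen in both subsets, at 1.38 in Klk6-positive and 1.40 in Klk6-negative cells of old mice. The 8 other genes had ratios between 0.926 and 1.05 in old mice and between 0.949 and 1.11 in young mice. With 1 library per group, the spread between mice is unknown and these ratios were not tested.

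The genes whose levels followed the mean profile of the 10 most closely over 65 points (18 classes by library, log2(CPM + 1)) were Nipal4 (Pearson r = 0.96), Nkx2-9, Tll2, A330049N07Rik, Haglr, 1500015L24Rik, Lctl, Gm28322, Slc34a3 and 4930420G21Rik, all at 0.95. None was a class marker. The points share libraries, depth and the step between oligodendrocytes and all other classes, and the genes were sparse, with between 112 and 1614 UMIs in all.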

How the data were processed

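The values the authors deposited are raw counts (UMIs of each gene in each barcode), per the file headers. Per the submitters' processing notes the reads were counted on mm10 with Cell Ranger 3.0.2 and analysed with Seurat 2.3.4, while the matrix headers name Cell Ranger 6.1.0. The strand setting and annotation release are not given in the sources used here, so reads of Cnp and Dnajc7, of Ermn and Galnt5, of Mobp and Gm38642, of Mbp and Rpl21-ps8, and of Mog and Gm22388, which overlap, may not be fully separated.

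Barcodes passed with a minimum of 500 UMIs and 200 genes and a mitochondrial part of up to 20% (44503 of 46097), and 4113 (9.24%) were removed as likely doublets by Scrublet score at 0.8% per 1000 barcodes (scanpy 1.11.5, Python 3.11.15). Median UMIs per kept cell were 4858, 4731, 3773 and 3920. Groups follow the labels, and no deposited cell annotation was used, so classes were rebuilt and may differ from those of the study. UMIs were summed per library and class. Contrasts between classes used edgeR 4.0.16 in R 4.3.3 (filterByExpr, TMM scaling, quasi-likelihood test, Benjamini-Hochberg adjustment over all genes tested, threshold 0.05). The same library supplied both classes of each pair, hence the library block. Ratios between libraries have exact conditional Poisson intervals (scipy 1.17.1) and no test. Shares were also taken with each cell thinned to 1000 UMIs. Scripts were tested on simulated data.

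All 10 genes are named. Other genes named with a result are members of the 4 lists that passed the test and the 10 genes with the highest correlation to the mean profile among genes with at least 100 UMIs in all. The genes, lists and tests were chosen with earlier results of these data known. The alternatives were keeping doublets, a filter at 1000 UMIs and 10% mitochondrial, stricter and looser gates, classes from clusters, thinning, DESeq2 1.42.0, no filter on low counts, no library block, at least 2 Klk6 UMIs, other scalings and leaving out each library.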

Additional observations from a re-analysis of the deposited data

Results flagged for a closer look

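In an interaction term added after the values were seen, the difference between Klk6-positive and Klk6-negative oligodendrocytes differed between old and young libraries at a log2 value of 0.27 for Mag (edgeR interaction, adjusted p = 0.00969) and 0.27 for Mog (edgeR interaction, adjusted p = 0.0152). Both calls were lost under 7 of 11 alternatives, among them leaving out old tumour (edgeR, adjusted p = 0.241 and 0.164), young tumour (0.289 and 0.341) or young sham (0.0528 and 0.0597). The ratio was above 1 in both old libraries for Mag and in 1 of 2 for Mog, and under 1 in both young libraries for both genes.

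The remaining differences were not tested, since each ratio rests on 1 library per group. Mag stood at 0.809 of the young level in old mice with a tumour and at 1.07 in sham, on opposite sides of 1. Cldn11 stood at 1.04 of the sham level in old tumour mice and at 0.949 in young tumour mice. Opalin stood at 0.976 of the sham level in old tumour mice and at 1.11 in young tumour mice.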

How the results depend on the processing

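Over 14 alternatives, Opalin, Mal and Ermn kept direction and call in the Klk6 contrast and Mobp stayed uncalled. All 10 genes kept theirs against precursors over 13 alternatives. The class calls held over 5 alternatives, and those of Ermn over 4, as Ermn was not among the genes tested in the other. Mag, near 0, turned positive without doublet removal (0.012), with the stricter gate (0.015) and with thinning (0.093), and ranged from -0.088 to 0.045 over left-out libraries. The number of genes called was 2847 in the Klk6 contrast, 1657 with DESeq2 and 803 with thinning, and 2048 to 2678 with 1 library left out. No replicate block gave 1606, at which the calls of Mbp (edgeR, adjusted p = 0.210), Cnp (0.132), Cldn11 (0.468) and Ugt8a (0.0975) were lost. Against precursors it was 6332, 4066 with the looser gate and 3254 with thinning, and 4445 to 6958 with 1 library left out. The interaction with age gave 150, with 94 at the stricter gate, 83 at the looser gate, 10 with thinning and 59 with DESeq2, and 57 (without young tumour) to 190 (without old tumour) with 1 library left out. In it Cnp turned to -0.044 with thinning and Opalin to -0.010 without doublet removal. Over left-out libraries Mobp ranged from -0.013 to 0.13 and Opalin from -0.12 to 0.22.

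Median log2 ratios over the 10 genes kept their sign between ages. In sham (-0.26) they were -0.15 with thinning, -0.17 as the mean of cells, -0.34 centred on all genes, -0.21 in Klk6-negative and -0.29 in Klk6-positive cells. With a tumour (-0.27) they were -0.21 without doublet removal, -0.23 with the stricter gate, -0.18 with thinning, -0.17 as the mean of cells, -0.31 centred, -0.30 in Klk6-negative and -0.18 in Klk6-positive cells. Tumour over sham in young mice (-0.04) was -0.10 without doublet removal, -0.073 with the looser gate and -0.057 in Klk6-positive cells. In old mice (-0.02) it changed side with thinning (0.0080), without mitochondrial and ribosomal protein genes (0.00083), centred (0.025) and in Klk6-positive cells (0.021), and was -0.0020 as the mean of cells. The median microglia percentage was 0.603 in old sham and 0.257 in young sham as the mean of cells, and 0.178 in young tumour with classes from clusters. The causes were not tested. The precursors of both tumour libraries, 30 and 24 cells, limit that contrast.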
